A study of Mus musculus with 14 samples.

Results

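The genes of cholesterol and fatty acid synthesis were followed in the retinal pigment epithelium (RPE) of rd1 mice in which Nrf2 had been overexpressed. The set holds 31 mouse genes out of 34452 in the count table. It was listed by name, and all 31 genes were found and passed the filter on low counts. 18 genes encode steps from acetyl-CoA to cholesterol, 4 encode regulators or a sterol carrier, and 9 encode steps of fatty acid synthesis and desaturation.

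RNA was sequenced from the RPE of 7 rd1 mice at postnatal day 20, with 1 library from each eye. The rd1 mouse has lost the function of Pde6b, a rod phosphodiesterase, and its rods die early. Every eye carried AAV-Best1-GFP, an adeno-associated virus (AAV) that expresses green fluorescent protein (GFP) from a promoter active in the RPE. The treated eye of each mouse was given AAV-Best1-Nrf2, which encodes human Nrf2, as well, so that the groups differed in the transgene and also in the number of vectors, and the capsids of these vectors were not the same. They are called Nrf2 eyes and control eyes, and mice are numbered as in the labels.

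Cells make cholesterol from acetyl-CoA through mevalonate, farnesyl diphosphate, squalene and lanosterol. Fatty acids are built from the same acetyl-CoA by acetyl-CoA carboxylase and fatty acid synthase and are then elongated and desaturated. SREBP-2, the product of Srebf2, is best known for activating the sterol genes, and SREBP-1, the product of Srebf1, for activating the fatty acid genes. Both are held in the endoplasmic reticulum by Insig proteins when sterols are plentiful. The RPE takes in lipid every day when it phagocytoses the shed tips of photoreceptor outer segments, and it exchanges lipid with both the retina and the choroid. Nrf2 is a transcription factor known mainly for its antioxidant targets.

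Depth ranged from 16548349 to 50543008 counts per library. Values are given as counts per 1000000 counts of the library (CPM), and each fold change is the treatment term of a model with mouse and treatment, after normalization between libraries. The human Nrf2 transcript of the vector stood at 1163 to 8711 CPM in the Nrf2 eyes and at 1.12 to 1163 CPM in the control eyes. The control eye of mouse 3 and the Nrf2 eye of mouse 4 held the same rounded level, 1163 CPM. These libraries, from different mice and labelled as different treatments, were also the most alike of all 91 pairs of libraries (Pearson's r of log2 CPM 0.988 over 14350 genes, beside 0.744 to 0.974 for the other pairs). Their counts differed by more than sampling noise (chi-square per degree of freedom 8.01, beside at least 52.8 for the other pairs). The labels were kept as given, and results are also given without these mice. Of 8 RPE markers, all were detected in both groups, Best1 at only 0.302 to 3.84 CPM. Their summed level was 5237 to 23925 CPM in control eyes and 11262 to 22920 CPM in Nrf2 eyes. Most of that sum was Rgr and Ttr, whose means moved in opposite directions. From control to Nrf2 eyes, Rgr went from 7039 to 4074 CPM and Ttr from 3401 to 9005 CPM. The 4 surface epithelium keratins Krt5, Krt12, Krt14 and Krt15 were abundant too, at 1804 to 48102 CPM in sum in control eyes and 1916 to 20737 CPM in Nrf2 eyes. None of the 4 passed the test. Rpe65, the isomerase of the visual cycle, was the only RPE marker that passed, and it fell (log2 fold change -2.17, adjusted p = 0.0198 in edgeR). The 5 cone markers summed to 30.6 to 886 CPM in control eyes and 11.1 to 65.7 CPM in Nrf2 eyes, and 2 of them fell. These were Opn1sw and Gnat2, which passed in 3 and 2 of the 7 fits that left out a mouse. In such bulk samples a smaller number of cells of a type cannot be told apart from less RNA in each cell.

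Stearoyl-CoA desaturases Scd1 and Scd2, which place the first double bond into saturated fatty acids, rose in the Nrf2 eyes. They were the only members past the threshold, an adjusted p below 0.05 in the quasi-likelihood test of edgeR. No member fell at that threshold. Over all 16289 genes tested, 559 passed (3.43%), of which 479 were higher in Nrf2 eyes (2.94%) and 80 were lower (0.491%). The share of members that rose, 2 of 31, was thus near that background. At an unadjusted p below 0.05, 3 members were higher and 3 were lower, and over all genes this looser limit was met by 18.1%, with 7.49% lower. The median log2 fold change of the 31 members was -0.07, beside -0.04 over all genes tested.

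Scd1 lies on the minus strand of chromosome 19, at 44394455 to 44407879 in build GRCm38, and Scd2 on the plus strand at 44293674 to 44306864. The genes are near neighbours and close copies, so it matters whether reads can tell them apart. Their coding sequences, of 1068 and 1077 bases, were identical at 90.36% of 1068 aligned positions, and the longest identical run was 147 bases. Of all 31-base words in their transcripts, 8.07% of those of Scd1 and 6.24% of those of Scd2 occurred in another gene. A window of 90 bases of coding sequence (bases 75 to 164 of Scd1 and 84 to 173 of Scd2, counted from the start codon) is shown because it separates the copies best. It is written 5′ to 3′ on the coding strand, and capitals mark the 30 positions at which the sequences differ.
Scd1: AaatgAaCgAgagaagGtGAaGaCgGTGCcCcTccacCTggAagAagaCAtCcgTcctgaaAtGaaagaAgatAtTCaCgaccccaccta
Scd2: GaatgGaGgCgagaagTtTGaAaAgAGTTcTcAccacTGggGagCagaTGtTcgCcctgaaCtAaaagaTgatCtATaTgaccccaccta

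Scd1 was the less abundant copy. It ranged from 8.63 to 43.2 CPM in the control eyes, with a median of 17.4, and from 31.5 to 79.1 CPM in the Nrf2 eyes, with a median of 53.7. The ranges overlapped, because the control eye of mouse 3 lay above the Nrf2 eye of mouse 5, but the Nrf2 eye was the higher in all 7 mice. The mean rose from 20.8 ± 11.5 to 54.2 ± 14.2 CPM (SD, n = 7 each), and the log2 fold change was 1.64 ± 0.30 (SE; 95% interval 0.95 to 2.32), with an adjusted p of 0.0258 in edgeR. Flipping the signs of the 7 within-mouse differences in every way (exact permutation test, two-sided) gave p = 0.0156, the smallest it can give.

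Scd2 carried most desaturase RNA in both groups. Control eyes held 543 to 819 CPM, with a median of 705, and Nrf2 eyes held 846 to 1423 CPM, with a median of 1110. In these CPM, which are not normalized between libraries, no Nrf2 eye was as low as any control eye. With the normalization factors applied the groups overlapped, because the Nrf2 eye of mouse 2 then lay below the control eye of mouse 6. In such normalized values, 1.22% of all genes tested had every Nrf2 eye above every control eye. The mean rose from 696 ± 110 to 1149 ± 257 CPM (SD, n = 7 each), with a log2 fold change of 0.84 ± 0.16 (SE; 95% interval 0.48 to 1.20) and an adjusted p of 0.0286 in edgeR. As for Scd1, every mouse had more in its Nrf2 eye (7 of 7, exact sign-flip permutation p = 0.0156), as was the case for 5.65% of all genes tested. Scd1 made up a median of 2.65% of the desaturase sum in control eyes and 3.98% in Nrf2 eyes. The remaining mouse copies were scarce, at 0.194 to 2.63 CPM for Scd3 and 0.119 to 2.84 CPM for Scd4 over both groups. Neither passed the threshold.

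Both desaturase calls lay close to the threshold. With 1 mouse left out at a time, the log2 fold change stayed between 1.44 and 1.84 for Scd1 and between 0.77 and 0.92 for Scd2. The edgeR adjusted p, however, ranged from 0.0223 to 0.103 for Scd1 and from 0.0209 to 0.102 for Scd2. Both genes passed without mouse 4, and neither passed without mouse 1 or without mouse 7. Scd1 alone passed without mouse 3 and without mouse 5, and Scd2 alone without mouse 2 and without mouse 6. Without mice 3 and 4, whose vector levels stood apart, Scd1 passed (log2 fold change 1.80, adjusted p = 0.0357) and Scd2 did not (0.81, adjusted p = 0.0797).

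**Figure D1:**
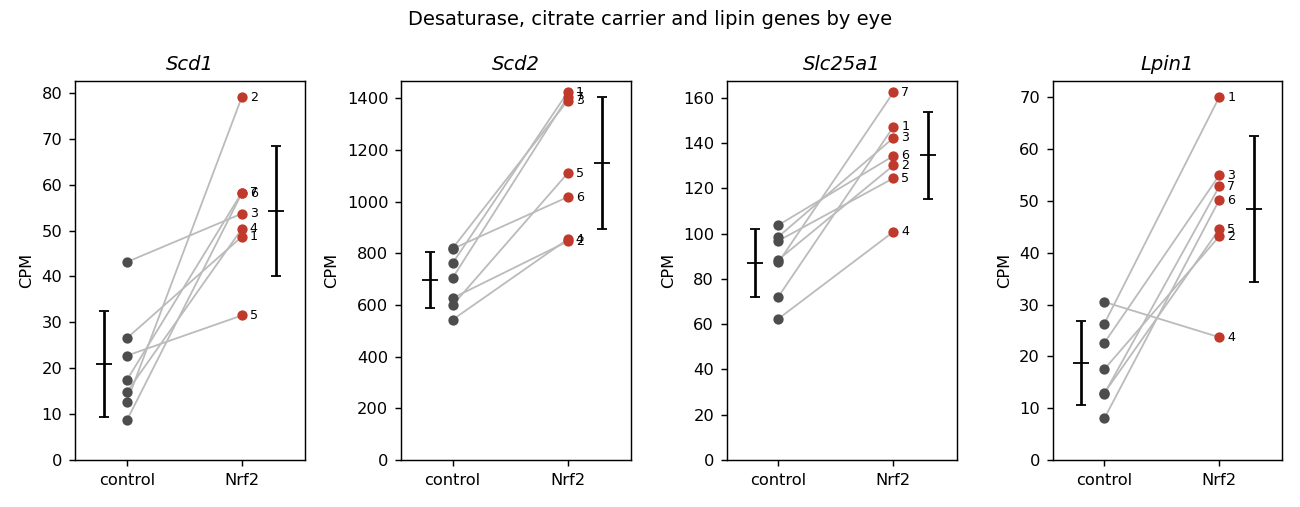
CPM (vertical axes, from 0) of 2 desaturases, the citrate carrier Slc25a1 and Lpin1 in control and Nrf2 eyes. Grey lines join the eyes of a mouse, numbers at right name the mouse, and black marks give the mean and SD of 7 eyes. Each line rises except that of mouse 4 for Lpin1.

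The other genes of the fatty acid branch differed among themselves. Those that feed acetyl-CoA into the pathway moved in opposite directions without passing the threshold. Acly cleaves cytosolic citrate to acetyl-CoA. It was lower in 6 of 7 mice, with medians of 244 CPM in control eyes and 191 CPM in Nrf2 eyes (log2 fold change -0.26, 95% interval -0.55 to 0.03, adjusted p = 0.326 in edgeR). Acss2 makes acetyl-CoA from acetate. It was higher in 6 of 7 mice, and 16% of all genes were higher in at least 6. Its medians were 32.7 and 51.8 CPM, and mouse 6 had the opposite order (log2 fold change 0.70, 95% interval 0.10 to 1.30, adjusted p = 0.209). In Acss2, 309 of the 31-base words of its transcripts are also found in Gss, a glutathione synthesis gene, and how counts were divided between these genes was not tested.

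The synthesis and elongation enzymes did not pass the threshold in either direction. Acaca, which encodes acetyl-CoA carboxylase and commits acetyl-CoA to fatty acids, had medians of 25.9 CPM in control eyes and 21.9 CPM in Nrf2 eyes. The log2 fold change was -0.12 (95% interval -0.50 to 0.26). Of the words in its transcripts, 33.4% are shared with other genes, mostly the gene Gm5182, so its counts are uncertain. Fatty acid synthase, Fasn, shares none, and its medians were 98.8 and 97.1 CPM, with a log2 fold change of 0.00 (95% interval -0.36 to 0.36). Elovl6, which lengthens palmitate to stearate and so makes the substrate of the desaturases, was 84.2 ± 10.6 CPM in control eyes and 63.5 ± 7.77 CPM in Nrf2 eyes (SD, n = 7 each). Its log2 fold change was -0.28 (95% interval -0.55 to -0.01), with an adjusted p of 0.262.

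Fads1 and Fads2, the desaturases of polyunsaturated fatty acids, act on other substrates than the Scd enzymes. Fads1 had medians of 382 CPM in control eyes and 381 CPM in Nrf2 eyes, and its log2 fold change was 0.12 (95% interval -0.20 to 0.44). Fads2 had medians of 140 and 137 CPM and a log2 fold change of 0.03 (95% interval -0.30 to 0.36). Over the 9 genes of the branch the median log2 fold change was 0.03. With Scd1 and Scd2 left out of the sum, the branch totalled a median of 987 CPM in control eyes and 936 CPM in Nrf2 eyes.

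**Figure D2:**
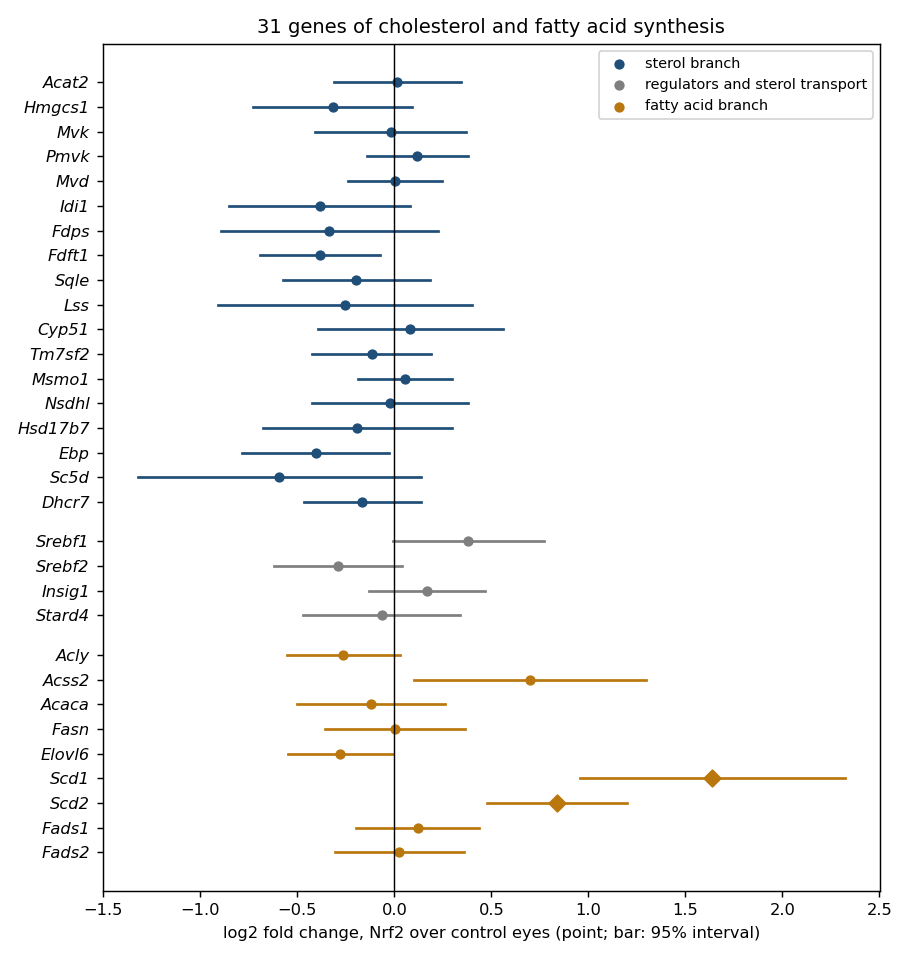
Log2 fold change of Nrf2 over control eyes for the 31 genes (points) with its 95% interval (bars), grouped by branch. Diamonds mark Scd1 (1.64) and Scd2 (0.84), which passed the threshold. The sterol points lie between -0.59 and 0.12.

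None of the 18 genes from acetyl-CoA to cholesterol passed the threshold in either direction. Their median log2 fold change was -0.18, beside -0.04 over all genes, and 13 of 18 lay below 0, beside 54.8% of all genes. In 7 of the 18, the Nrf2 eye was the lower in 6 of 7 mice, and 19.7% of all genes were lower in at least 6 mice. The 95% intervals of the branch reached from -1.32 to 0.56. Their width differed between enzymes, from -0.24 to 0.24 for Mvd to -1.32 to 0.14 for Sc5d.

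At the head of the pathway, Acat2 joins acetyl-CoA units and Hmgcs1 makes HMG-CoA. Acat2 had medians of 72.6 CPM in control eyes and 67.6 CPM in Nrf2 eyes (log2 fold change 0.02), although 43.7% of the 31-base words of its transcripts are shared, chiefly with Acat3. Hmgcs1 ranged from 174 to 315 CPM with a median of 229 in control eyes and from 140 to 243 CPM with a median of 172 in Nrf2 eyes. Its log2 fold change was -0.32 (95% interval -0.73 to 0.09), and it was lower in 5 mice and higher in 2. Mvk, Pmvk and Mvd, which phosphorylate and decarboxylate mevalonate, lay between -0.02 and 0.12 on the log2 scale.

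The steps that build and join isoprenoid units were lower in most mice. Idi1 isomerizes the isoprenoid unit, Fdps condenses it to farnesyl diphosphate, and Fdft1 joins farnesyl units into squalene. Fdft1 had medians of 220 CPM in control eyes and 139 CPM in Nrf2 eyes, with 6 of 7 mice lower. Its log2 fold change was -0.38 (95% interval -0.69 to -0.07), and its adjusted p was 0.186 in edgeR. Its exact sign-flip permutation p was 0.0469, which is not adjusted and is the smallest of the sterol branch. Of its words 31.9% are shared, with Ctsb and Gm6781. Idi1 had medians of 110 and 71.3 CPM and a log2 fold change of -0.38, and Fdps had medians of 183 and 133 CPM and a log2 fold change of -0.33. Of their words 18.8% and 27.9% are shared with other genes. Both were lower in 6 of 7 mice, and neither passed (edgeR adjusted p = 0.363 and 0.502).

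Sqle, which oxidizes squalene, and Lss, which closes the rings to lanosterol, had log2 fold changes of -0.19 and -0.25. Lss was the more variable, from 42.8 to 123 CPM among the control eyes. The enzymes that strip lanosterol of its methyl groups had log2 fold changes of 0.08 for Cyp51, 0.05 for Msmo1, -0.02 for Nsdhl and -0.19 for Hsd17b7, which was lower in 6 of 7 mice. Tm7sf2, a sterol reductase, stood at -0.12. Msmo1 was the most tightly held of these, at 215 ± 25.5 CPM in control eyes and 204 ± 15.97 CPM in Nrf2 eyes (SD, n = 7 each).

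The last steps rearrange the double bonds of the sterol rings. Ebp, the sterol isomerase, had medians of 31.7 CPM in control eyes and 24.4 CPM in Nrf2 eyes and was lower in 6 of 7 mice (log2 fold change -0.41, 95% interval -0.78 to -0.03, adjusted p = 0.243 in edgeR). Sc5d, the desaturase of the sterol ring, ranged from 36.4 to 133 CPM with a median of 77.2 in control eyes and from 25.9 to 85.1 CPM with a median of 43.6 in Nrf2 eyes. It had the most negative log2 fold change of the branch, -0.59, but also the widest interval, from -1.32 to 0.14 (adjusted p = 0.368). Dhcr7, which reduces the final ring double bond, was lower in 6 of 7 mice, with a log2 fold change of -0.16.

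Mouse 4 stood apart in the sterol genes, most of which were higher in its Nrf2 eye, though Pmvk and Fdft1 were lower. That eye is the library that resembled the control eye of mouse 3. The summed level of the 18 genes was lower in the Nrf2 eye of 6 mice and higher in mouse 4, where it was 1407 CPM in the control eye and 1880 CPM in the Nrf2 eye. In the control eye of mouse 3 it was 1752 CPM. The library labelled as the Nrf2 eye of mouse 4 and that control eye were also close in keratin (19908 and 21202 CPM), myelinating glia (2874 and 2937 CPM), muscle (175 and 177 CPM) and cone markers (27.7 and 30.6 CPM), so the direction in mouse 4 rests on that label. Without mouse 4, 3 members fell, all of the sterol branch: Sc5d (log2 fold change -0.89, adjusted p = 0.0196), Idi1 (-0.58, adjusted p = 0.0275) and Ebp (-0.55, adjusted p = 0.0335), all by edgeR. The calls over all genes grew as well without that mouse, with 6.23% lower and 5.98% higher, so that 3 of 31 is set against a larger background. The sterol median was then -0.30, and 17 of 18 genes lay below 0, beside 55.2% of all genes. Without mice 3 and 4 no member fell past the threshold in the 5 mice left, but the fold changes were as large, at -0.94 for Sc5d (adjusted p = 0.0535) and -0.64 for Idi1 (adjusted p = 0.0597). The sterol median was -0.32, with 17 of 18 genes below 0. Leaving out mouse 6 alone had the opposite effect. The sterol median was then -0.07, beside -0.06 over all genes, and 11 of 18 genes lay below 0. With mouse 1, 2, 3, 5 or 7 left out it was -0.14 to -0.17. The size of the sterol shift thus depended on mouse 6 as well as on mouse 4.

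**Figure D3:**
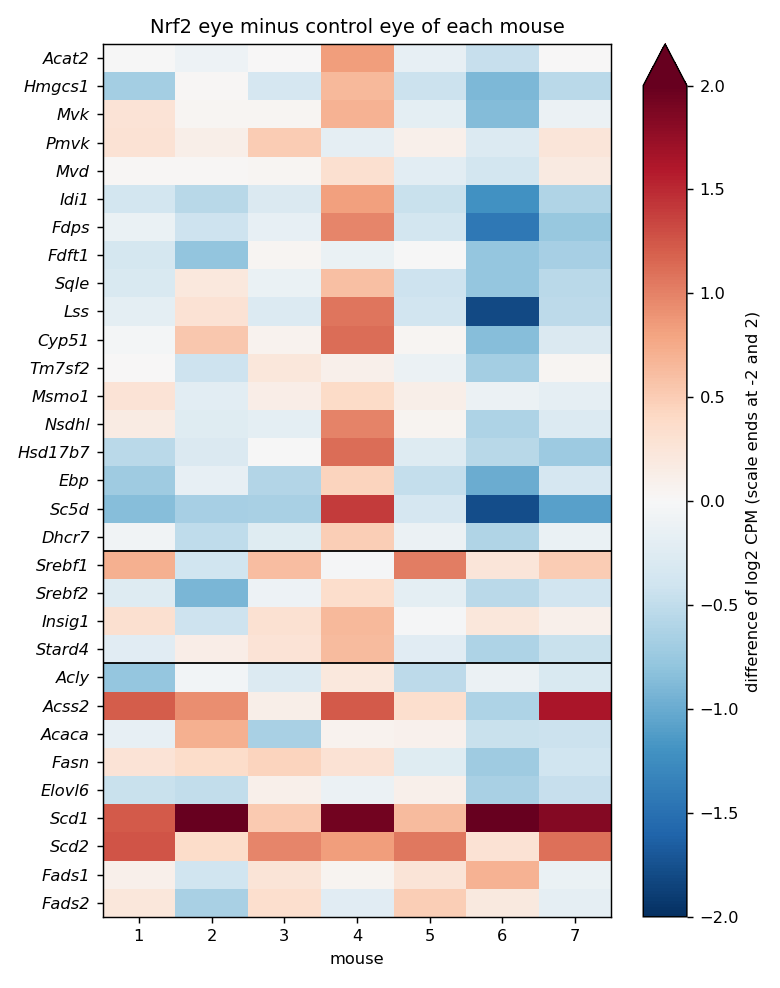
Difference of log2 CPM between the Nrf2 eye and the control eye of each mouse (columns) for the 31 genes (rows, black lines between the branches). Red is higher in the Nrf2 eye and blue is lower, and the colour scale ends at -2 and 2. Scd1 and Scd2 are red in all 7 mice, while most sterol genes are blue in mouse 6 and red in mouse 4.

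The sterol sum was set beside the surface keratins, which also differed between eyes. The keratin sum was lower in the Nrf2 eye in 6 of 7 mice, again with mouse 4 as the exception. Among the control eyes, the eye of mouse 4 had both the lowest keratin sum (1804 CPM) and the lowest sterol sum (1407 CPM), and the eye of mouse 6 had both the highest (48102 and 2528 CPM). Within the control eyes Pearson's r was 0.77 (permutation p = 0.0516) and Spearman's rho 0.71 (permutation p = 0.0881). Within the Nrf2 eyes r was 0.77 (permutation p = 0.0310) and rho was 0.82 (permutation p = 0.0341). After adjustment over the 6 relations computed, the permutation p of r was 0.155 in both groups. When the 2 eyes farthest from the median keratin level were left out, r was -0.05 in control eyes and 0.95 in Nrf2 eyes, so the relation in control eyes rested on those eyes.

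With the keratin level added to the model as a covariate, an alternative chosen after seeing the data, the sterol median turned from -0.18 to 0.03 and 9 of 18 genes lay below 0. The keratin sum changed in the same direction as the sterol sum in every mouse, and in most mice it fell with treatment. This fit therefore cannot tell the keratin level apart from the treatment. Scd2 still passed (log2 fold change 0.86, adjusted p = 0.0494), and Scd1 kept a log2 fold change of 1.58 with an adjusted p of 0.0720. For the desaturase sum the relation with the keratins had r = 0.56 in control eyes and -0.63 in Nrf2 eyes (adjusted permutation p = 0.226 for both). The part of the keratins in these results was not tested.

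**Figure D4:**
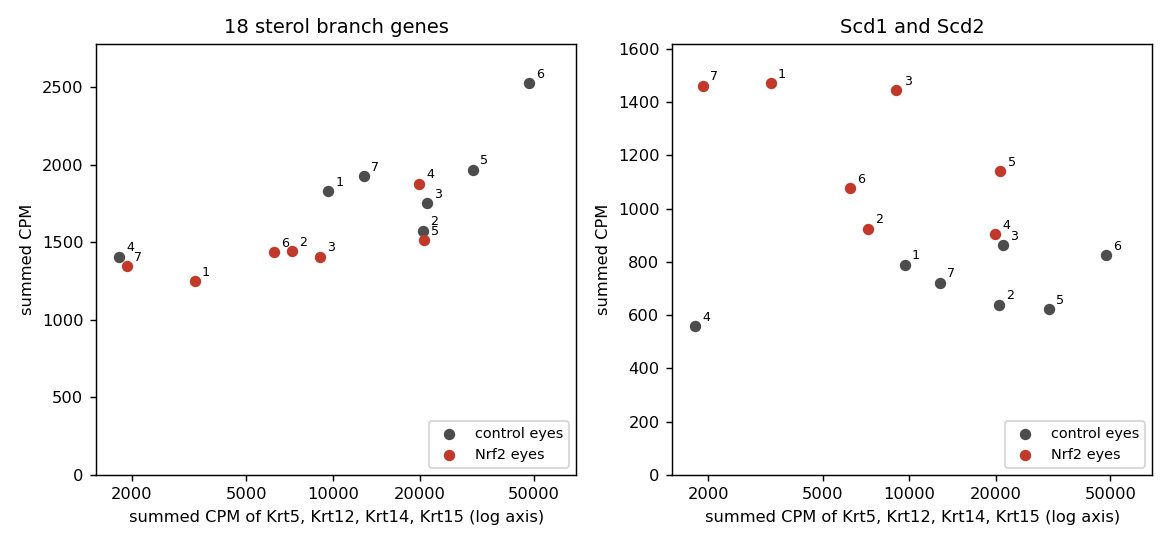
Summed CPM of the 18 sterol genes (left) and of Scd1 and Scd2 (right) against the summed CPM of 4 surface keratins (log axis) in each eye, with mouse numbers beside the points. The sterol sum is 1407 CPM at the lowest control keratin level and 2528 CPM at the highest. All Nrf2 eyes lie above all control eyes in the right panel, in CPM that are not normalized between libraries. Scd2, which makes up most of that sum, overlapped between the groups after normalization.

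Markers of other cells were also read beside the desaturases, since Scd1 is abundant in adipocytes. The 5 adipocyte markers summed to 0.323 to 1.39 CPM in control eyes and 0.186 to 5.44 CPM in Nrf2 eyes. Adipoq was at most 0.467 CPM and Cfd at most 0.0548 CPM in any eye. The highest adipocyte sum, 5.44 CPM, and the highest Scd1 level, 79.1 CPM, were found in the same eye, the Nrf2 eye of mouse 2, in which Plin1 stood at 2.36, Lep at 1.87 and Cidec at 1.21 CPM, against at most 0.993, 0.272 and 0.0353 CPM in any control eye. The Nrf2 eye of mouse 2 was also the library of lowest depth (16548349 counts). It was the least like the rest, with r of log2 CPM of 0.744 to 0.834 with each other library. Without mouse 2 the log2 fold change of Scd1 was 1.45 (adjusted p = 0.0608 in edgeR). Myelinating glia markers were high in the control eye of mouse 3 (2937 CPM) and in the Nrf2 eyes of mice 2 and 4 (1833 and 2874 CPM), and elsewhere 51.0 to 696 CPM. The part of these cells in the desaturase levels was not tested.

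Among the regulators, no transcript passed the threshold. Srebf1 had medians of 196 CPM in control eyes and 223 CPM in Nrf2 eyes and was higher in 5 of 7 mice (log2 fold change 0.38, 95% interval -0.01 to 0.77, adjusted p = 0.285 in edgeR). Srebf2 had medians of 196 and 153 CPM and was lower in 6 of 7 mice (log2 fold change -0.29, 95% interval -0.62 to 0.04, adjusted p = 0.331). Insig1, which retains the SREBP proteins, had medians of 272 and 279 CPM and a log2 fold change of 0.17 (95% interval -0.13 to 0.47). Stard4, a cytosolic sterol carrier, had a log2 fold change of -0.07. The amount of cleaved SREBP protein, on which the activity of the pathway depends, cannot be read from RNA.

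Levels can be compared between genes per kilobase of transcript. In control eyes the highest mean levels were those of Fdps (148 CPM per kb), Scd2 (127.6), Fads1 (109) and Msmo1 (105). The order of Fdps and Scd2 lies within the spread of Fdps, whose SD was 74.9 on a mean of 194 CPM and whose counts share words with other genes as given above. In Nrf2 eyes Scd2 came first at 211 CPM per kb, ahead of Fads1 (106), Fdps (103) and Msmo1 (99.7). The lowest were Acaca (2.90 in control and 2.65 in Nrf2 eyes) and, in control eyes, Scd1 (4.31), which stood at 11.2 CPM per kb in Nrf2 eyes.

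To place the set in its pathway, 58 further genes of sterol and lipid metabolism were counted, of which 57 could be tested. Of these 57, 2 rose and none fell in edgeR, near the shares of all genes (2.94% and 0.491%). At an unadjusted p below 0.05, 12 were higher and 6 lower, beside 10.7% and 7.49% of all genes. DESeq2 called 8 higher and 3 lower, beside 7.6% and 4.33% of all genes. Slc25a1 and Lpin1 were the genes that rose, and both act on the fatty acid side.

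Slc25a1 encodes the mitochondrial citrate carrier, which supplies the citrate that Acly cleaves. It ranged from 62.4 to 104 CPM in control eyes, with a median of 88.5, and from 101 to 162 CPM in Nrf2 eyes, with a median of 134. The Nrf2 eye was the higher in all 7 mice, although the Nrf2 eye of mouse 4 lay below the control eye of mouse 6. The log2 fold change was 0.76 ± 0.13 (SE; 95% interval 0.46 to 1.06), with an adjusted p of 0.0214 in edgeR. It passed in 4 of the 7 fits that left out a mouse and missed without mouse 3, mouse 5 or mouse 7 (adjusted p = 0.0684, 0.0589 and 0.0740) and without mice 3 and 4 (0.0620).

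Lpin1 encodes lipin, a phosphatidate phosphatase that makes diacylglycerol for triglyceride and phospholipid synthesis. Control eyes held 7.998 to 30.5 CPM, with a median of 17.5, and Nrf2 eyes 23.7 to 70.0 CPM, with a median of 50.2. It was higher in 6 of 7 mice, and mouse 4 had the opposite order. The log2 fold change was 1.59 ± 0.30 (SE; 95% interval 0.90 to 2.28), with an adjusted p of 0.0286 in edgeR. Of the fits that left out a mouse, only that without mouse 4 passed (log2 fold change 1.87, adjusted p = 0.00153), and the others reached 0.0669 to 0.118. Without mice 3 and 4 it was 1.94 (adjusted p = 0.00638). The acyltransferase genes before and after lipin did not pass, with log2 fold changes of -0.64 for Gpam, 0.03 for Agpat2, -0.09 for Dgat1 and -1.27 for Dgat2 (edgeR adjusted p = 0.252, 0.952, 0.821 and 0.219).

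Of the 11 genes for the liver X receptors and for sterol efflux, storage and lysosomal release, none passed. At an unadjusted p below 0.05, 6 were higher, beside 10.7% of all genes, and the median log2 fold change was 0.36. The list mixes these functions, and 8 of its genes lay above 0 and 3 below. Mylip (-0.17), Lpcat3 (-0.09) and Nr1h2, the other liver X receptor gene (0.10), did not rise. Soat1, which esterifies cholesterol for storage, had medians of 104 CPM in control eyes and 132 CPM in Nrf2 eyes and was higher in all 7 mice (log2 fold change 0.72, adjusted p = 0.0728 in edgeR). Npc1, which exports cholesterol from lysosomes, was also higher in all 7 mice (0.39, adjusted p = 0.0840). Nr1h3, the liver X receptor alpha gene, was low, at 2.48 to 10.1 CPM, with a log2 fold change of 0.71 (adjusted p = 0.155). The cholesterol exporters had opposite signs, with a log2 fold change of 0.43 for Abca1 (adjusted p = 0.223) and of -0.73 for Abcg1, which was lower in 6 of 7 mice (adjusted p = 0.355). Among 7 genes for SREBP processing and degradation, Rnf145, a ubiquitin ligase of the sterol response, was lower in all 7 mice, with medians of 137 and 89.6 CPM (log2 fold change -0.45, adjusted p = 0.0684). Being lower in all 7 mice was seen in 2.92% of all genes.

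Promoter sequence, which the choice of the set did not use, was searched for 4 motifs. RefSeq windows of 250 bases before the start (build GRCm38.p6) were found for 24 of the 31 genes, and were missing for Scd1, Scd2, Sqle, Fdps, Fads1, Fdft1 and Stard4. The box CCAAT, on either strand, occurred in 19 of 24 windows (79.2%), against 37.5% of the windows of 27025 genes. In the sterol branch it occurred in 14 of 15 (93.3%), and in the fatty acid branch in 2 of 6 (33.3%). The core of the sterol regulatory element, searched as TCACNCCAC, was found in Hmgcs1 alone (4.2%, against 1.2% of all windows). The E-box CACGTG, a palindrome, was found in 16.7% of members and 6.9% of all windows. The core of the antioxidant response element, searched as TGACNNNGC, was found in 16.7% and 11.5%. The further pathway genes, with 51 windows, held CCAAT in 54.9%, the sterol element core in 3.9%, the E-box in 17.6% and the antioxidant core in 11.8%. The E-box share was thus not particular to the members. All searches covered both strands. A match describes letters and is not a site of binding.

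The windows of 3 genes are printed 5′ to 3′ in the direction of transcription, with motif letters in capitals: Slc25a1, because it rose; Hmgcs1, because it held the sterol element core; and Sc5d, because its fold change was the most negative of the sterol branch. They lie at chr16:17928220-17928469 (minus strand), chr13:119690101-119690350 (plus strand) and chr9:42264301-42264550 (minus strand), just before the annotated starts.
Slc25a1: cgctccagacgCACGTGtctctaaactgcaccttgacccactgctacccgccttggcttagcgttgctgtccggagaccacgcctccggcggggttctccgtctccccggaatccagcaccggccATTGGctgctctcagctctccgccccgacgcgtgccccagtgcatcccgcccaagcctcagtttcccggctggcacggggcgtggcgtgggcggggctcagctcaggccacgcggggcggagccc
Hmgcs1: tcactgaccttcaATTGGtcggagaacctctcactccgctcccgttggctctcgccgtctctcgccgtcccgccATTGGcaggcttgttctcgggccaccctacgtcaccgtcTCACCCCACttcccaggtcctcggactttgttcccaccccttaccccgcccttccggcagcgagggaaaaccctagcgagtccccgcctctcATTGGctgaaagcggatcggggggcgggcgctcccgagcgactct
Sc5d: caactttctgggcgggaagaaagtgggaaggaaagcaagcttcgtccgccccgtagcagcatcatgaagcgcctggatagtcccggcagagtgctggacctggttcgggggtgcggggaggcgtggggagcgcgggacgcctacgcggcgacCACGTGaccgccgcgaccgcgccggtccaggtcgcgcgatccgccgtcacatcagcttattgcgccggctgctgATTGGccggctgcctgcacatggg
Hmgcs1 holds CCAAT 3 times, read here as ATTGG on the printed strand, and its sterol element core lies between these boxes. Slc25a1 and Sc5d each hold 1 E-box and 1 CCAAT box. None of these 3 windows held the antioxidant response element core, which says only that those letters are not in this stretch.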

How the data were processed

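Polyadenylated RNA from the RPE of both eyes of 7 rd1 mice was amplified with a low-input kit and sequenced in more than 1 run, and the labels do not assign libraries to runs, so no comparison within runs could be made. The deposited table holds estimated counts for each gene, as whole numbers and not normalized. The authors aligned reads to mm10 with Ensembl annotation and estimated gene counts with Salmon (0.9.1 per the submitters' processing notes) for their tests. That the deposited counts are those of Salmon is inferred. Totals ran from 16548349 to 50543008. For the members, whose lowest count in any library was 205, counting error is smaller than the spread between mice. That does not extend to scarce genes such as Cfd, Scd3 and Scd4, whose lowest counts were 0, 6 and 5.

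Here counts were tested with edgeR 4.0.16 (R 4.3.3) by its quasi-likelihood F-test, with terms for mouse and treatment and TMM factors on the totals of mouse genes, filterByExpr with a minimum count of 10, and Benjamini-Hochberg adjustment over 16289 genes. The vector row was left out of the test. Standard errors were derived from the F statistic. CPM use the total with the vector and no TMM factor, so a ratio of CPM means can differ from the fitted fold change. Within-mouse differences used log2 CPM with a prior count of 2. The scripts were tested on simulated data, in which edgeR kept within the bound set on false calls and DESeq2 exceeded it. The numbers of genes called by DESeq2 are therefore less certain.

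The study's methods name fewer pairs at this age than the 7 in the table, and which were used there is not given in the sources used here, so all were analysed. Eyes were paired by the animal number of the labels. The deviations of the 2 eyes of a mouse from their group means, over 14350 genes, correlated at 0.02, 0.05, 0.03, -0.39, 0.36, -0.23 and 0.16 in mice 1 to 7. The alternatives were no mouse term, RLE and upper-quartile factors, DESeq2 1.42.0, no filter, and mice left out. Positions and transcripts are from GENCODE M21 (GRCm38), with 34401 of 34452 gene rows matched. The named genes were all members and those further pathway genes past the threshold, and others of that pathway list named were chosen after their values were seen. Members and lists were chosen with earlier results of these data known.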

Additional observations from a re-analysis of the deposited data

Results flagged for a closer look

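In 66 groups of 7 eyes (33 genes in each group), 5 held an eye whose gap to the nearest of the others, over the range, exceeded Dixon's 95% critical value. Chance alone marks about 1 group in 20. The Nrf2 eye of mouse 4 was the highest of its group for Acat2 (112.2 CPM, the others 59.9 to 71.1), for Hmgcs1 (242.7 CPM, the others 140.4 to 184) and for Idi1 (107.4 CPM, the others 66.8 to 76.0). The control eye of mouse 6 was the highest of its group for Lss, at 122.6 CPM, with the others at 42.8 to 74.5. The Nrf2 eye of mouse 2 was the highest for Acaca, at 51.79 CPM, with the others at 13.9 to 24.1.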

How the results depend on the processing

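Members higher in Nrf2 eyes numbered 2 and members lower 0 in the reported fit, without the mouse block (no pairing), with RLE or upper-quartile factors, with DESeq2 and with library sizes summed after the filter. The number higher was 1 with no filter (Scd1), 1 without mice 3 and 4 (Scd1), 1 with the keratin covariate (Scd2) and 0 to 2 with 1 mouse left out. The number lower was 0 to 3 with 1 mouse left out. For the 57 pathway genes, the number higher was 4 without the block, 8 with DESeq2, 1 without mice 3 and 4 and 0 to 6 with 1 mouse left out, and the number lower was 2, 3, 1 and 0 to 7, and 1 with upper-quartile factors. Over all genes, 877 were higher and 223 lower without the block, 1238 and 705 with DESeq2, 307 and 40 with no filter, and 301 and 34 with the keratin covariate. Without mice 3 and 4, 499 were higher and 262 lower. With 1 mouse left out, 89 (mouse 7) to 977 (mouse 4) were higher and 8 (mouse 7) to 1018 (mouse 4) lower. The causes were not tested. Library sizes summed after the filter and the keratin covariate were chosen after seeing the data.

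Of 495 comparisons of single genes (33 genes under 15 alternatives), 433 kept direction and side of the threshold, 21 lost and 3 gained a call, and 38 changed sign. All 38 concerned genes not called in either fit. Without the block Mvd was -0.00629 and Fasn -0.0304. With the keratin covariate Mvk was 0.152, Lss 0.0705, Nsdhl 0.209, Hsd17b7 0.101, Stard4 0.107 and Fads2 -0.000915. With library sizes summed after the filter Acat2 was -0.00724, Mvd -0.0211 and Fasn -0.0199. Without mice 3 and 4 Acat2 was -0.143, Mvd -0.0683, Cyp51 -0.120, Msmo1 -0.0261 and Fasn -0.144. With 1 mouse left out, the values of these genes ran from -0.12 to 0.0825 for Acat2, -0.137 to 0.106 for Mvk, -0.0521 to 0.0508 for Mvd, -0.0875 to 0.224 for Cyp51, -0.00100 to 0.0916 for Msmo1, -0.185 to 0.0673 for Nsdhl, -0.182 to 0.0136 for Stard4, -0.0816 to 0.109 for Fasn and -0.0507 to 0.114 for Fads2. Scaling moved the median of all genes by less than 0.1 on the log2 scale. The lowest count of a member in any library was 205, for Scd1.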
